A study of Mus musculus with 6 samples.

Results

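Complex I, the NADH:ubiquinone oxidoreductase, is the first enzyme of the mitochondrial respiratory chain. The genes described here are those whose symbol starts with Nduf or mt-Nd, leaving out symbols that end in -ps. They number 56 of the 54532 genes in the data, and 56 such genes stand in the annotation used for the symbols. By the letter in the symbol they fall into 16 Ndufa genes, 11 Ndufb genes, 2 Ndufc genes, 9 Ndufs genes, 3 Ndufv genes, 8 assembly factors (Ndufaf) and 7 mitochondrially encoded genes (mt-Nd). The letters follow the old biochemical fractions and not always the present assignment: Ndufa4 keeps the name but is now placed in complex IV, and Ndufa11b, Ndufb4c and Ndufs6b are annotated as processed pseudogenes.

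The libraries came from immortalised mouse bone marrow-derived macrophages (iBMDM), all treated with IL-4 at 10 ng/ml for 24 hours. IL-4 is a cytokine that drives the alternative, anti-inflammatory activation of macrophages. Wild-type (WT) cells gave 3 libraries, and the other 3 carry the label 4-1BBL KO, that is, without 4-1BBL, a ligand of the TNF family encoded by Tnfsf9. Marrow cells of WT and of 4-1BBL-deficient mice had been made into growing cells with retroviruses that carry the oncogenes v-raf and v-myc, which both groups share. The sources do not say how many mice or lines stand behind each group, nor whether the 3 libraries of a group were separate cultures, so each p-value rests on the spread among these libraries alone, and that spread may be technical. The title of the study sets 4-1BBL beside the metabolism of macrophages, of which complex I is a part. No library without IL-4 was analysed here.

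Complex I takes electrons from NADH, passes them through a chain of iron-sulfur clusters to ubiquinone, and uses the energy to pump protons across the inner membrane. Its core is shared with bacteria. The N module (Ndufv1, Ndufv2, Ndufs1) oxidises NADH, the Q module (with Ndufs3, Ndufs7 and Ndufs8) reduces ubiquinone, and the membrane arm, with the 7 mt-Nd subunits, pumps protons. The remaining nuclear-encoded subunits are accessory, and assembly factors help to build the enzyme without staying in it. In macrophages, oxidative phosphorylation is known to be associated with alternative activation by IL-4, and a fall in respiration with inflammatory activation.

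Values are FPKM, fragments per kilobase of exon, scaled to the depth of the library. The length behind them takes all annotated exons of a gene, for example 5628 bases for Ndufb2 and 8086 for Ndufs1. Fragments can also be assigned to copies of a gene elsewhere in the genome. Levels and ranks of different genes can thus be compared only roughly. Where 3 values are given for a group, they follow the replicate numbers 1 to 3. The depth recovered from the values was 20.7 to 22.3 M (mega) assigned fragments in WT libraries and 19.1 to 26.4 M in the others. Macrophage markers were present, with 9 of 9 at a mean of at least 1 FPKM and a sum of 2293 to 2344 FPKM in WT and 1345 to 1390 in KO-labelled libraries, where Mertk was the marker under 1 FPKM in WT. The markers did not move as one: 4 were lower (Lyz2 from 1207 to 484 FPKM, Cd14 from 292 to 45.8, Cd68 from 426 to 275 and Csf1r from 232 to 134), 3 were higher (Adgre1 from 11.8 to 268, Fcgr1 from 8.46 to 22.98 and Mertk) and 2 did not pass (Spi1 and Itgam). Summed markers of other cells lay at 0.0675 to 0.141 FPKM in WT and 0.655 to 1.24 in KO-labelled libraries for neutrophils (Ly6g and S100a9 at 0 throughout), 0.475 to 0.797 and 0.340 to 0.526 for dendritic cells, and 0.0628 to 0.615 and 1.42 to 1.80 for B cells. Those of T cells reached at most 0.0516 FPKM and those of fibroblasts at most 0.0151 FPKM. The part of these differences in the results was not tested. Tnfsf9 was at 14.6, 10.4 and 12.05 FPKM in the WT libraries and at 10.7, 10.7 and 11.4 in the KO-labelled ones (exact two-sided permutation p = 0.4, where 0.1 is the smallest possible). The transcript level thus does not separate the groups, the sources do not give the removed part of Tnfsf9, and so the text speaks of KO-labelled cells. The Y-linked gene Ddx3y was at 9.92 to 12.1 FPKM in the KO-labelled libraries and had 1 fragment in all WT libraries together, so the cells differ in more than the named gene, and which difference bears on a result cannot be told apart.

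KO-labelled replicate 3 stood apart more often than the others. Among the 54 genes tested it was the library farthest from its own group for 22, against 14 for KO-labelled replicate 1 and 9 for WT replicate 1. Results that turn on it are given with and without it.

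Sequences at the starts of nuclear-encoded genes are shown first, so that genes that moved together can be compared at their starts. RefSeq (build GRCm38.p6) gave 42 start windows for 40 of the 56 genes, each 300 bases long, from 250 before to 50 after the start of transcription. They were searched on both strands for short motifs of factors known for respiratory genes: NRF1 (GCGC and TGCGC on either side of any base), the ETS family that includes GABPA (CCGGAAG), and YY1 (AANATGGCG). Shown are the windows of 4 genes that were lower in KO-labelled cells (Ndufs8, Ndufa5, Ndufs7, Ndufc2) and of 2 that were higher (Ndufa6, Ndufa13), with capitals marking a match to any of these 3 motifs and lower case for the rest. Ndufs8 (chr19:3912725-3913024, minus strand) has an ETS match, Ndufa5 (chr6:24527641-24527940, minus strand, 1 of its 2 windows) and Ndufa6 (chr15:82354242-82354541, minus strand) have an NRF1 match, and Ndufs7 (chr10:80249199-80249498, plus strand) has a YY1 match. Ndufc2 (chr7:97399753-97400052, plus strand) and Ndufa13 (chr8:69901971-69902270, minus strand) have no match in these windows. In the annotation used for the symbols, the gene starts at 69902558 for Ndufa13, at 24528013 for Ndufa5 and at 80249121 for Ndufs7. These annotated starts lie outside the printed windows and were not searched.
Ndufs8: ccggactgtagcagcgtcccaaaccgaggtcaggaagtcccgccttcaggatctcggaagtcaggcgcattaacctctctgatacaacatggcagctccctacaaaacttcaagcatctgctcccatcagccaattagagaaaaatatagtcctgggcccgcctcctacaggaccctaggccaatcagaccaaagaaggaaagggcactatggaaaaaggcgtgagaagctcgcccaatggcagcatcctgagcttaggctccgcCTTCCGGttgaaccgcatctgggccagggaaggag
Ndufa5: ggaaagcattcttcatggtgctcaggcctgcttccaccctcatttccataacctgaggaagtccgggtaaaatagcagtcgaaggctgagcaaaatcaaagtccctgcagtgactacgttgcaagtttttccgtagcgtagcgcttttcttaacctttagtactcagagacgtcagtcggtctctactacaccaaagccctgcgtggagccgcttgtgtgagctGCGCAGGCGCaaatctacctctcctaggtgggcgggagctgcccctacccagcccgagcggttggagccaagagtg
Ndufs7: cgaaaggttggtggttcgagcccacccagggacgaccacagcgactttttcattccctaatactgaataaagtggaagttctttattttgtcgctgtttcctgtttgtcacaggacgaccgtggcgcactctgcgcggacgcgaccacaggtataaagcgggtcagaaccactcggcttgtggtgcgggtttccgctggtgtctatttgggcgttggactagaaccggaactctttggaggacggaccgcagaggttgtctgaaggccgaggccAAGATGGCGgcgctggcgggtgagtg
Ndufc2: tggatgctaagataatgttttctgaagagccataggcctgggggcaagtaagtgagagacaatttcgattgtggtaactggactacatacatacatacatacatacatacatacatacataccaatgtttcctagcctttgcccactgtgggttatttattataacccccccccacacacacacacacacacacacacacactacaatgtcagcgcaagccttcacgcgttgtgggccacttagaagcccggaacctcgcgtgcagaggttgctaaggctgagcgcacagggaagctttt
Ndufa6: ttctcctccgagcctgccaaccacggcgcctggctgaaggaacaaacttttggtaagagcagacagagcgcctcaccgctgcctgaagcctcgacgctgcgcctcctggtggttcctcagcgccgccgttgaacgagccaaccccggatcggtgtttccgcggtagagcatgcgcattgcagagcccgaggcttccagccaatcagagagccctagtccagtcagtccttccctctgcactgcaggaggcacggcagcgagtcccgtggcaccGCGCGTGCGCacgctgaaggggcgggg
Ndufa13: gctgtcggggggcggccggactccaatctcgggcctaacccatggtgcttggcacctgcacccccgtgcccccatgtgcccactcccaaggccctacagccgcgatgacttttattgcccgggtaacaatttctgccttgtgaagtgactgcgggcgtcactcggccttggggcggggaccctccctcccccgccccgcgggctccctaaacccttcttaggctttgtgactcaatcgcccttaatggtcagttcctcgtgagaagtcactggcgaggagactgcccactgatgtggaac

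Counted by windows, 10 of the 42 (23.8%) held the NRF1 motif, against 4.60% of all 32851 windows in the table. The YY1 motif was in 8 (19.0%, against 2.38%) and the ETS motif in 6 (14.3%, against 8.86%). At least 1 of the 3 was in 22 windows (52.4%, against 14.2%), and 2 windows held more than 1 of them. By direction of change, at least 1 of the 3 was in 12 of the 22 windows of genes lower in KO-labelled cells, in 2 of the 5 windows of genes higher there, and in 8 of the 15 windows of genes that did not pass. In all these counts the 2 windows of Ndufa5 overlap and hold the same NRF1 site, so that 1 site counts in both. Ndufa7, among the genes higher, also has more than 1 window. Other motifs were in 3 windows (ERR, AAGGTCA; 7.14%, against 4.72%), 14 windows (NFY, CCAAT; 33.3%, against 37.4%) and 22 windows (SP1, GGGCGG; 52.4%, against 35.7%). Windows of complex I genes were also richer in G and C, with a median of 59.3% against 52.7% for all windows; the part of base composition in the motif shares was not tested. In these windows matches of different motifs overlapped at 1 place, an ETS and an SP1 match in Ndufs3. A match describes letters in the window and not binding.

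Transcripts of complex I were more often lower than higher in the KO-labelled cells. Of the 54 genes tested, 28 were lower and 4 were higher at an adjusted p under 0.05 in limma with Benjamini-Hochberg adjustment over 10843 genes, and 22 did not pass. The groups differed widely at all genes: 60.8% of genes passed in either direction, 30.2% lower and 30.6% higher. Among complex I genes the share passing was 59.3%, close to the background, whereas 51.9% were lower and 7.41% were higher. The median log2 fold change of FPKM + 1, KO-labelled minus WT, was -0.22 over the 54 genes and 0.01 over all genes tested. The 4 genes that rose were Ndufa13, Ndufv3, Ndufa6 and Ndufa7, all nuclear-encoded accessory subunits.

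All 3 KO-labelled libraries lay below all 3 WT libraries for 30 genes (55.6%, background 33.4%) and above them for 4 (7.41%, background 34.1%). A fall of 0.5 or more on the log2 scale that also passed the test was found for 13 genes (24.1%, background 15.7%). Without KO-labelled replicate 3 the numbers were 31 lower and 4 higher with a median of -0.27, and without WT replicate 2 or without WT replicate 3 the number higher was 2. With values rescaled to TPM the median of all genes moved to 0.10, that of complex I genes to -0.16, and the counts to 24 lower and 4 higher. In bulk RNA, fewer cells of a kind and less RNA per cell cannot be told apart.

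**Figure D1:**
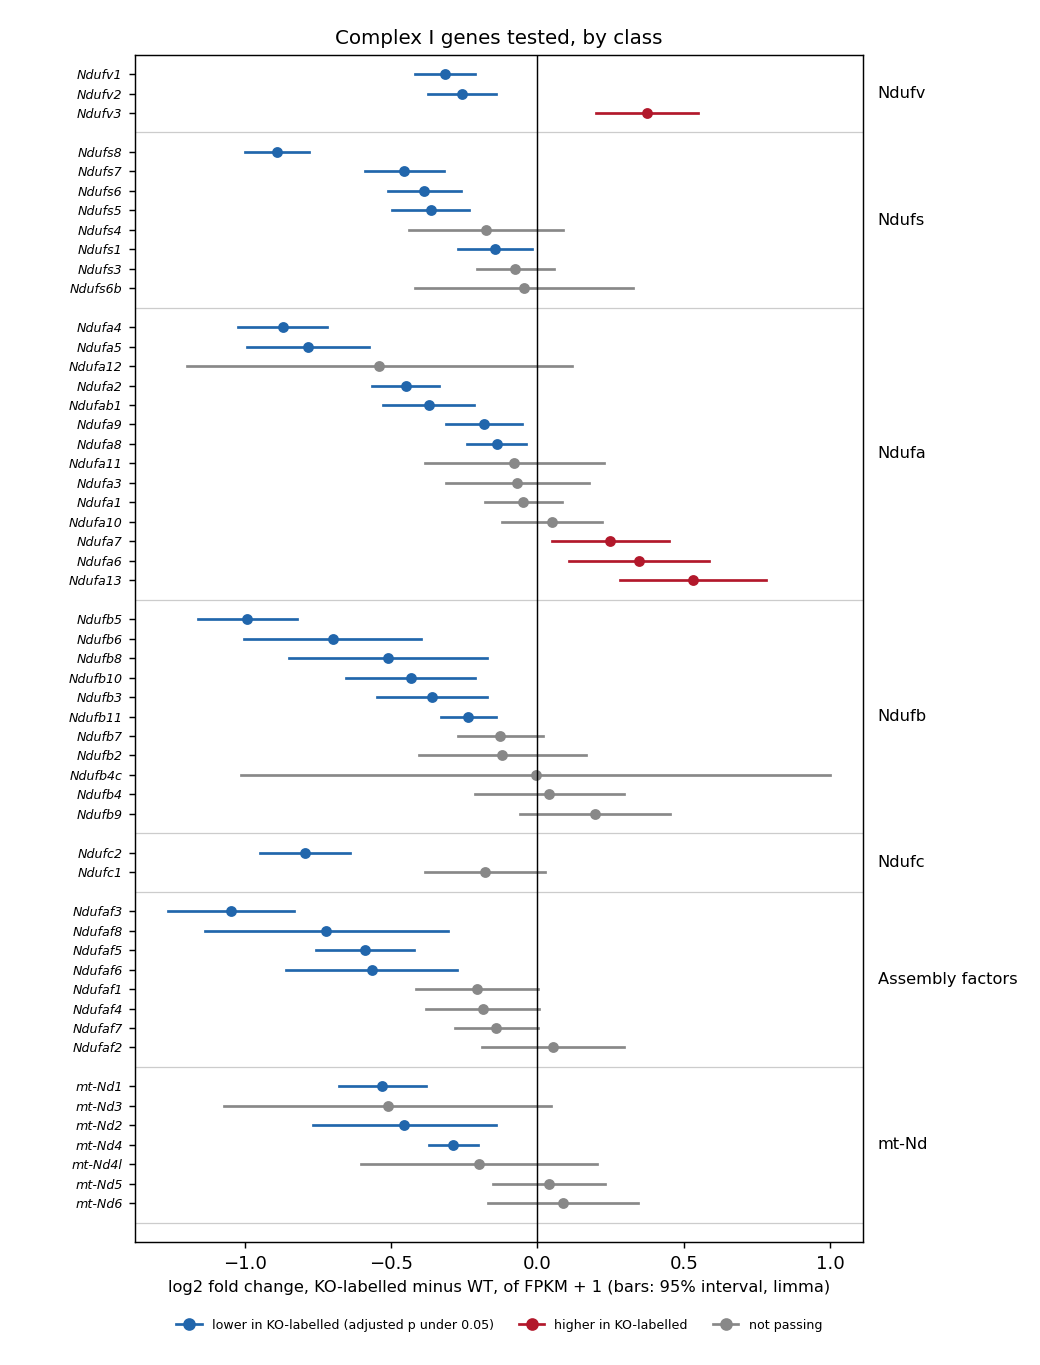
Of the 54 tested complex I genes, 53 are drawn, each by its log2 fold change (KO-labelled minus WT, of FPKM + 1) with the 95% interval from limma, grouped by class and ordered within it. Blue points are 27 genes lower in KO-labelled cells, red points the 4 that were higher and grey points the 22 that did not pass; the red points are in the Ndufv and Ndufa classes.

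Summed over all 56 genes, the transcripts came to 4515, 4366 and 4388 FPKM in the WT libraries and to 3290.1, 3493 and 3722 in the KO-labelled ones. No KO-labelled library reached the lowest WT sum. The nuclear-encoded genes summed to 2018 ± 28.1 FPKM in WT and 1558 ± 17.7 in KO-labelled cells (SD, n = 3 each), a change of -22.8%. The 7 mt-Nd genes summed to 2405 ± 74.4 and 1943 ± 200 FPKM, a change of -19.2%. The FPKM of all genes also summed lower, to 286101 to 295164 in KO-labelled libraries against 306046 to 312801 in WT. The part of this difference in scale in the falls was not tested. No test was made on sums.

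The core of the enzyme was lower in most of its nuclear-encoded subunits. Of the 6 genes Ndufs1, Ndufs3, Ndufs7, Ndufs8, Ndufv1 and Ndufv2, 5 were lower and 1, Ndufs3, did not pass, and the median change was -0.29. The call of Ndufs1 was lost under 10 of 14 alternatives. Among all genes 30.2% were lower and 30.6% higher. Of the 32 tested nuclear-encoded accessory subunits, 15 were lower (46.9%), 4 were higher (12.5%) and 13 did not pass, with a median of -0.18. This count goes by name and holds Ndufa4 and the pseudogenes Ndufb4c and Ndufs6b. Whether core and accessory subunits differ was not tested.

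In the Q module, Ndufs8 carries a pair of iron-sulfur clusters on the way to ubiquinone. It lies on chromosome 19 at 3908863 to 3912774 (minus strand, mm10; ENSMUSG00000059734), and its start window is the first one printed above. Its level was 214, 207 and 206 FPKM in the WT libraries and 108, 111 and 118 in the KO-labelled ones. The groups did not overlap and were far apart against their spread, with means of 209 ± 4.54 and 112 ± 5.19 FPKM. The log2 fold change was -0.89 ± 0.05 (SE; limma adjusted p = 4.77e-06). By level, Ndufs8 ranked 6 among all complex I genes in each group, first among the nuclear-encoded ones.

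Ndufs7, which holds the last iron-sulfur cluster before ubiquinone, had 69.2, 66.2 and 61.4 FPKM in the WT libraries and 46.4, 46.7 and 49.6 in the KO-labelled ones. Every KO-labelled library was below every WT library, and the log2 fold change was -0.45 ± 0.06 (limma adjusted p = 0.000421). Ndufs3, also a Q module subunit, was at 24.7, 23.4 and 25.5 FPKM in the WT libraries and 22.01, 23.4 and 24.2 in the KO-labelled ones. Its libraries overlapped, and its log2 fold change of -0.08 (95% interval -0.21 to 0.06) had an adjusted p of 0.275 in limma. The 3 subunits thus spanned changes from -0.89 to -0.08.

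In the N module, Ndufv1 binds NADH and the flavin that first takes its electrons. It was at 54.9, 53.8 and 55.9 FPKM in the WT libraries and 45.6, 43.7 and 42.4 in the KO-labelled ones, a log2 change of -0.32 ± 0.04 (limma adjusted p = 0.000727). Ndufv2, which carries an iron-sulfur cluster beside it, had 56.5, 53.2 and 58.5 FPKM in the WT libraries and 47.3, 45.3 and 47.5 in the KO-labelled ones, a change of -0.26 ± 0.05 (adjusted p = 0.00336). Neither gene overlapped between groups. Ndufs1, the large subunit with several iron-sulfur clusters, changed by -0.15 ± 0.05, with an adjusted p of 0.0496 in limma that passed the threshold narrowly and was lost when any library other than KO-labelled replicate 1 was left out (adjusted p 0.0564 to 0.149). It was also lost on the TPM scale (0.361), without the filter on low values (0.0583), without the trend (0.0701) and with voom on recovered fragments (0.0656).

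Ndufv3, an accessory subunit of the same module, went the other way. It lies on chromosome 17 at 31520115 to 31531331 (plus strand; ENSMUSG00000024038). Its level was 14.3, 17.3 and 16.3 FPKM in the WT libraries and 21.7, 20.7 and 20.4 in the KO-labelled ones, with means of 15.9 ± 1.51 and 20.9 ± 0.715 FPKM. It rose by 0.38 ± 0.07 on the log2 scale (limma adjusted p = 0.00378), with no overlap between groups. The Ndufv class thus held 2 genes that fell and 1 that rose.

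Among the other Ndufs genes, Ndufs6 and Ndufs5, both accessory, had log2 fold changes of -0.39 and -0.36, both lower (limma adjusted p = 0.000628 and 0.00115). Ndufs6 is known as a zinc-binding subunit needed late in assembly. Ndufs4, an accessory subunit whose loss is used as a mouse model of Leigh syndrome, was at 18.8, 17.5 and 18.7 FPKM in the WT libraries and 13.3, 17.7 and 17.8 in the KO-labelled ones. KO-labelled replicate 1 lay below the other libraries, and the change of -0.17 (95% interval -0.44 to 0.09) did not pass, with an adjusted p of 0.212 in limma. All 9 Ndufs genes had a log2 fold change below 0, as had 5356 of all 10843 genes tested. Of the 9, 6 passed (66.7% lower, background 30.2%), and the median was -0.36. The smallest was -0.05 for the pseudogene Ndufs6b, at 0.751 to 1.48 FPKM, which on the TPM scale was at 0.0033, as Ndufs3 was at 0.015.

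**Figure D2:**
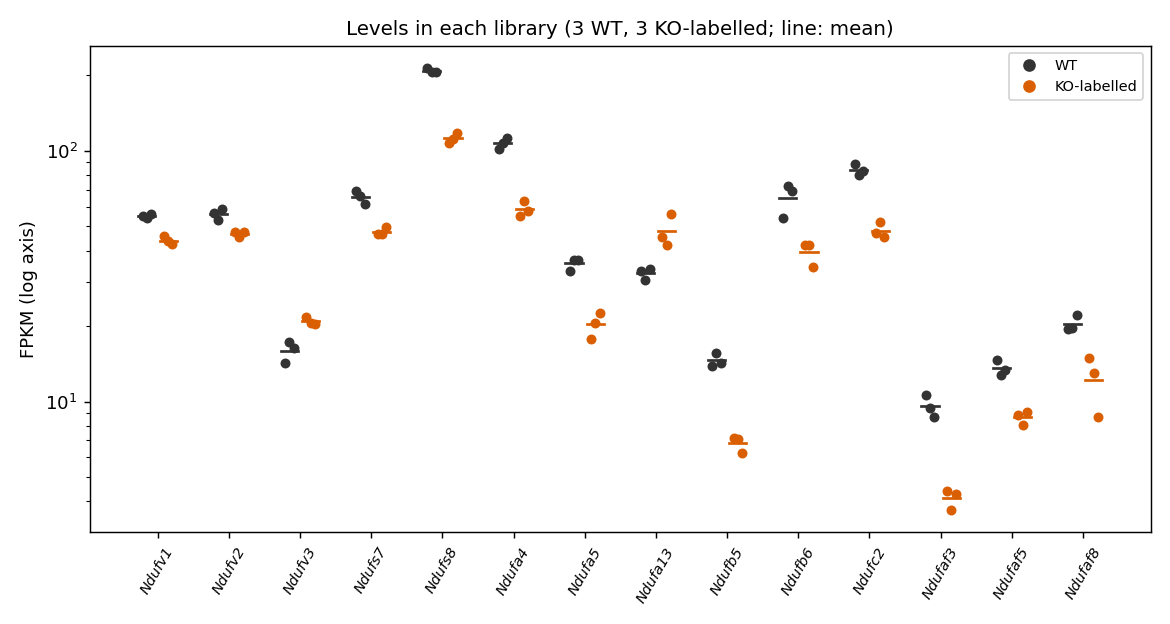
FPKM of 14 complex I genes in each of the 6 libraries on a log axis, with WT in black, KO-labelled in orange and a line at each group mean. KO-labelled points lie below WT points for 12 of the genes and above them for Ndufv3 and Ndufa13; Ndufs8, at 206 to 214 FPKM in WT, has the highest level shown.

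The Ndufa genes went both ways. Of 14 tested, 6 were lower, 3 were higher and 5 did not pass, which is 42.9% lower and 21.4% higher against 30.2% and 30.6% of all genes. Their median of -0.11 was near 0 on the TPM scale (-0.02) and was -0.18 without KO-labelled replicate 2. Of the 3 higher calls, only that of Ndufa13 was left when any 1 WT library was left out. The largest fall was that of Ndufa4, the subunit now placed in complex IV, on chromosome 6 at 11900292 to 11907497 (minus strand; ENSMUSG00000029632). It had 102, 108 and 113 FPKM in the WT libraries and 54.8, 62.9 and 57.6 in the KO-labelled ones, a log2 change of -0.87 ± 0.06 (limma adjusted p = 2.93e-05). Ndufa5, an accessory subunit of the matrix arm, had 33.3, 36.8 and 36.7 FPKM in the WT libraries and 17.8, 20.6 and 22.5 in the KO-labelled ones, a change of -0.78 ± 0.09 (adjusted p = 0.000245). For both genes the highest KO-labelled library was well under the lowest WT library. The other Ndufa genes that fell were Ndufa2 (-0.45), Ndufab1 (-0.37), Ndufa9 (-0.18) and Ndufa8 (-0.14). Of these, Ndufab1 is the mitochondrial acyl carrier protein, and the calls for Ndufa8 and Ndufa9 were lost on the TPM scale (adjusted p = 0.433 and 0.166) and under quantile normalization (0.749 and 0.179). That of Ndufa8 was also lost without the trend (0.0576) and with voom (0.133). Leaving out 1 library ended the call of Ndufa9 for WT replicate 2 and WT replicate 3 (0.0684 and 0.0841), and that of Ndufa8 for each library other than KO-labelled replicate 3 (0.0535 to 0.0871).

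Ndufa13, also known as GRIM-19, a membrane-spanning accessory subunit, rose. It lies on chromosome 8 at 69894180 to 69902558 (minus strand; ENSMUSG00000036199), and it is the last window printed above. Its level was 33.2, 30.5 and 33.96 FPKM in the WT libraries and 45.5, 41.98 and 55.97 in the KO-labelled ones, with means of 32.6 ± 1.81 and 47.8 ± 7.28 FPKM. The groups did not overlap, and the change was 0.53 ± 0.11 on the log2 scale (limma adjusted p = 0.00394). Of its exon length 29.98% overlaps Tssk6 on the opposite strand, which was at 3.06 FPKM in WT and 1.19 in KO-labelled cells. The part of this overlap in the level of Ndufa13 was not tested.

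Ndufa6, an LYR-motif protein that binds the acyl carrier protein, had 24.3, 24.8 and 24.2 FPKM in the WT libraries and 29.5, 28.1 and 37.3 in the KO-labelled ones. Its rise of 0.35 ± 0.10 (limma adjusted p = 0.0207) was lost when any of the 3 WT libraries was left out (adjusted p 0.0522 to 0.0601). Ndufa7, a matrix-arm accessory subunit, had 36.2, 36.4 and 36.3 FPKM in the WT libraries and 38.9, 42.2 and 49.5 in the KO-labelled ones, a change of 0.25 ± 0.08 (adjusted p = 0.0377). This call was lost without any WT library and without KO-labelled replicate 2 (adjusted p 0.0699 to 0.0932), without the filter on low values (0.0751) and without the trend (0.0536). In both genes, as in Ndufa13, KO-labelled replicate 3 had the highest level of the 6 libraries. The 5 Ndufa genes that did not pass were Ndufa1, Ndufa3, Ndufa10, Ndufa11 and Ndufa12. The first 4 had log2 fold changes from -0.08 to 0.05 and turned direction in at least 1 alternative, and Ndufa12 is described with its copy.

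Ndufa4l2, a relative of Ndufa4 known for its induction by hypoxia, and the pseudogene Ndufa11b had 0 fragments in all 6 libraries. At 3 fragments per library, the level that a count of 0 allows is 0.104 to 0.143 FPKM for Ndufa4l2 and 0.268 to 0.370 FPKM for Ndufa11b, counting error only. These are the 2 genes not tested.

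Most Ndufb genes encode the distal part of the membrane arm. Of 11 tested, 6 were lower (54.5%, background 30.2%), none was higher and 5 did not pass, with a median of -0.24. Ndufb5, on chromosome 3 at 32736990 to 32751566 (plus strand; ENSMUSG00000027673), had 13.9, 15.6 and 14.3 FPKM in the WT libraries and 7.19, 7.12 and 6.26 in the KO-labelled ones. Its change of -0.99 ± 0.07 (limma adjusted p = 2.62e-05) was the largest among the subunits. Of its exon length 12.3% overlaps Mrpl47 on the opposite strand, at 5.43 FPKM in WT and 3.81 in KO-labelled cells. Ndufb6 had 53.8, 72.2 and 69.04 FPKM in the WT libraries and 42.1, 42.1 and 34.4 in the KO-labelled ones, a change of -0.70 ± 0.13 (adjusted p = 0.00269). Its WT replicate 1 lay closest to the KO-labelled libraries, still without overlap. Of the exon length of Ndufb6, 39.0% overlaps Smim27 on the opposite strand, at 0.272 FPKM in WT and 0.740 in KO-labelled cells.

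Ndufb8, often used as a marker protein of assembled complex I, had 35.8, 34.2 and 35.98 FPKM in the WT libraries and 28.6, 27.1 and 18.9 in the KO-labelled ones. KO-labelled replicate 3 was the lowest, and the change of -0.51 ± 0.14 (limma adjusted p = 0.0183) did not pass without WT replicate 1 or without WT replicate 3 (0.0565 and 0.0550). Ndufb10, Ndufb3 and Ndufb11 changed by -0.43, -0.36 and -0.24 and passed. The genes that did not pass ran from -0.13 for Ndufb7 to 0.20 for Ndufb9, which without WT replicate 1 was at 0.30 with an adjusted p of 0.0306. The pseudogene Ndufb4c, a near-identical copy of Ndufb4, had 3.22 to 10.2 FPKM and a 95% interval of the log2 fold change from -1.01 to 1.00. Ndufb2 was among them at 0.956 to 1.53 FPKM, close to the level for testing of a mean of 1 FPKM.

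The Ndufc genes encode a pair of small membrane-arm subunits. Ndufc2, on chromosome 7 at 97400003 to 97407802 (plus strand; ENSMUSG00000030647), had 88.8, 79.9 and 83.5 FPKM in the WT libraries and 47.1, 51.9 and 45.3 in the KO-labelled ones. The libraries were clearly separated, with a change of -0.79 ± 0.06 (limma adjusted p = 4.83e-05). Ndufc1, its partner in the enzyme, had 24.5, 25.2 and 27.5 FPKM in the WT libraries and 21.3, 21.1 and 25.7 in the KO-labelled ones. KO-labelled replicate 3 lay within the WT range, and the change of -0.18 (95% interval -0.38 to 0.03) did not pass (adjusted p = 0.114), while without that library it was -0.27 with an adjusted p of 0.0112.

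Of the 8 assembly factors, 4 were lower (50%, background 30.2%), none was higher and 4 did not pass, with a median of -0.39. Ndufaf3, which with Ndufaf4 helps to assemble the Q module, had the largest fall of all complex I genes. It lies on chromosome 9 at 108565537 to 108567434 (minus strand; ENSMUSG00000070283). Its level was 10.6, 9.46 and 8.69 FPKM in the WT libraries and 4.38, 3.69 and 4.29 in the KO-labelled ones, with means of 9.59 ± 0.977 and 4.12 ± 0.375 FPKM. The change was -1.05 ± 0.09 (limma adjusted p = 6.39e-05). Its partner Ndufaf4 had 15.2, 12.9 and 13.5 FPKM in the WT libraries and 11.3, 11.6 and 13.2 in the KO-labelled ones, overlapping, with a change of -0.19 (95% interval -0.38 to 0.01) and an adjusted p of 0.0856.

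Ndufaf5 is a methyltransferase-like enzyme that hydroxylates Ndufs7, and Ndufaf8 is its binding partner. Ndufaf5 had 14.7, 12.7 and 13.3 FPKM in the WT libraries and 8.88, 8.09 and 9.06 in the KO-labelled ones, a change of -0.59 ± 0.07 (limma adjusted p = 0.00034). Ndufaf8 had 19.4, 19.6 and 22.2 FPKM in the WT libraries and 14.99, 13.03 and 8.71 in the KO-labelled ones, a change of -0.72 ± 0.18 (adjusted p = 0.0101). Both partners were lower in every KO-labelled library, and Ndufaf8 varied more, with KO-labelled replicate 3 the lowest. Ndufaf6, an early factor, changed by -0.57 and passed (adjusted p = 0.00606). Ndufaf1, Ndufaf7 (a methyltransferase) and Ndufaf2 had log2 fold changes of -0.21, -0.14 and 0.05 and did not pass (adjusted p = 0.0792, 0.0776 and 0.674). Without KO-labelled replicate 3, Ndufaf1 was at -0.30 (0.00554) and Ndufaf4 at -0.25 (0.0313), both then past the threshold. Ndufaf4 (-0.22, 0.0457) and Ndufaf7 (-0.17, 0.0398) also passed under quantile normalization, and Ndufaf7 without the trend (0.0478).

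The 7 mt-Nd genes are transcribed from the circular mitochondrial genome as long precursors that are cut into the separate messengers, mt-Nd6 from the opposite strand to the rest. Of these 3 were lower (42.9%, against 30.2% of all genes), none was higher and 4 did not pass, with a median of -0.29. mt-Nd1 (mitochondrial genome, 2751 to 3707), a membrane-arm subunit next to the ubiquinone site, had the highest level of all complex I genes. It was at 1142, 1116 and 1088 FPKM in the WT libraries and 703, 808 and 811 in the KO-labelled ones, without overlap, with a change of -0.53 ± 0.06 (limma adjusted p = 0.000329). mt-Nd2 (3914 to 4951), a proton-pumping subunit, had 404, 387 and 376 FPKM in the WT libraries and 240.3, 269 and 353 in the KO-labelled ones. KO-labelled replicate 3 approached the WT range, and the change of -0.45 ± 0.13 (adjusted p = 0.0206) was lost under several settings: on the TPM scale (0.0612), under quantile normalization (0.144), without the filter on low values (0.0559), and without WT replicate 1, WT replicate 2 or KO-labelled replicate 2 (0.0566 to 0.0682).

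mt-Nd4 (10167 to 11544), another pumping subunit, had 269.7, 263 and 267 FPKM in the WT libraries and 215, 217 and 224 in the KO-labelled ones. Its libraries were tight and did not overlap, with a change of -0.29 ± 0.04 (limma adjusted p = 0.000418) that was -0.04 (0.482) under quantile normalization. mt-Nd5 (11742 to 13565), the outermost pumping subunit, was at 321, 301 and 286 FPKM in the WT libraries and 281, 311 and 344 in the KO-labelled ones. mt-Nd6 (13552 to 14070, opposite strand) was at 345, 306 and 324 FPKM in the WT libraries and 302, 335 and 407 in the KO-labelled ones. Both overlapped between groups, with changes of 0.04 (95% interval -0.15 to 0.23) and 0.09 (-0.17 to 0.34) that did not pass (adjusted p = 0.695 and 0.516) and turned to -0.03 each without KO-labelled replicate 3. The sources do not give the strand setting of the counting, so fragments from the strand opposite to mt-Nd6 cannot be told apart from its own.

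mt-Nd3 (9459 to 9806) had 3.63, 2.91 and 3.23 FPKM in the WT libraries and 1.09, 2.04 and 3.15 in the KO-labelled ones, and mt-Nd4l (9877 to 10173) had 2.99, 2.43 and 2.12 FPKM in the WT libraries and 1.40, 2.57 and 2.29 in the KO-labelled ones. Neither passed, with changes of -0.51 and -0.20 (limma adjusted p = 0.0985 and 0.340). Both genes have a near-identical copy in the nuclear genome, and their levels depend on how shared fragments were assigned. Without KO-labelled replicate 1, the lowest library, mt-Nd3 was at -0.26 with an adjusted p of 0.207, and without KO-labelled replicate 3 it was at -0.75 with 0.0116. All 13 protein genes of the mitochondrial genome together took 0.642% to 0.691% of the recovered fragments in WT and 0.502% to 0.568% in KO-labelled libraries.

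Of the 56 genes, 15 have a near-identical copy elsewhere, defined by 95% identity or more along 80% or more of the shorter of both transcripts. Of these, 4 are described for the large share of fragments assigned to the copy. For the others, leaving aside the pseudogenes Ndufb4c and Ndufs6b, the copy took at most 9.07%. These shares cover assigned fragments only. Multi-mapping rules were not given, and fragments dropped from both places would not show in them. For mt-Nd4, as an example, the copy Gm28439 is 100% identical along 876 bases. Ndufa12, an accessory subunit related to Ndufaf2, had 31.9, 13.4 and 16.5 FPKM in the WT libraries and 12.9, 12.8 and 13.1 in the KO-labelled ones, with WT replicate 1 far above the rest. Its log2 fold change of -0.54 had an adjusted p of 0.132 in limma. Without WT replicate 1 the change was -0.19 (adjusted p = 0.135), and without WT replicate 2 it was -0.79 (0.0407). Its copy Gm15920 took 27.2% to 55.7% of the fragments of the pair. With the fragments of the copy added, the level of Ndufa12 was 43.8, 30.2 and 31.3 FPKM in the WT libraries and 20.3, 21.98 and 24.3 in the KO-labelled ones. In this sum the groups did not overlap, and the change was -0.62 ± 0.14 (adjusted p = 0.00797).

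For mt-Nd3 the copy Gm28438 took 84.0% to 93.0% of the fragments of the pair, and the sum was 30.8, 24.8 and 24.9 FPKM in the WT libraries and 15.5, 18.7 and 19.7 in the KO-labelled ones. That sum changed by -0.56 ± 0.11 (limma adjusted p = 0.00482). Such sums hold assigned fragments only, and any fragments dropped from both places are missing from them. For mt-Nd4l the copy Gm10222 took 50% to 67.4%, and the sum did not pass (-0.36, adjusted p = 0.239). For Ndufab1, Gm4459 and Ndufab1-ps together took 16.3% to 25.8%, and the sum changed by -0.29 (adjusted p = 0.00783) against -0.37 without them. Adding copies throughout, a comparison chosen after the data were seen, gave 30 genes lower and 4 higher with a median of -0.25. Among the 39 tested genes without a copy, 21 were lower and 4 higher, with a median of -0.19.

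**Figure D3:**
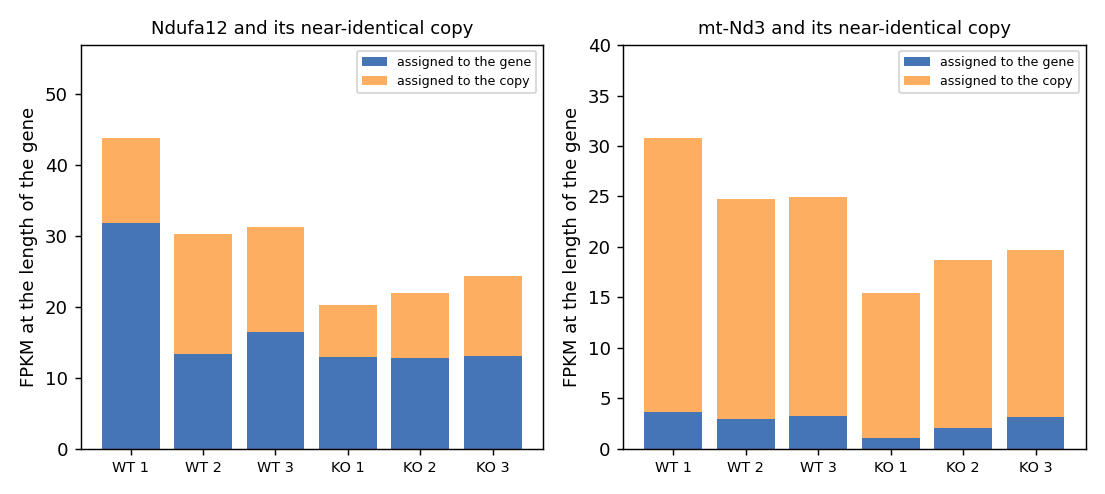
Level of Ndufa12 and of mt-Nd3 in each library (WT 1 to 3, KO-labelled 1 to 3), with fragments assigned to the gene in blue and to its near-identical copy in orange, both as FPKM at the length of the gene. The whole bars of the KO-labelled libraries are all shorter than those of WT, 20.3 to 24.3 against 30.2 to 43.8 FPKM for Ndufa12 and 15.5 to 19.7 against 24.8 to 30.8 FPKM for mt-Nd3.

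Many complex I genes start close to another gene on the opposite strand. A protein-coding partner started within 1000 bases for 18 genes, and for 16 of the pairs both genes were tested. Both were lower in 5 pairs: Ndufa2 with Ik, a splicing factor gene (-0.45 and -1.07), Ndufa4 with Phf14 (-0.87 and -0.37), Ndufaf8 with Tepsin (-0.72 and -0.47), Ndufb11 with Rbm10 (-0.24 and -0.37) and Ndufb3 with Fam126b (-0.36 and -0.51). Both were higher in 2 pairs: Ndufa7 with Rps28, a ribosomal protein gene whose start is 10 bases away (0.25 and 0.37), and Ndufv3 with Wdr4 at 135 bases (0.38 and 0.39). In 1 pair the directions were opposite, Ndufaf5 at -0.59 and Esf1 at 0.22 (limma adjusted p = 0.0474 for Esf1). In the other 8 pairs at least 1 gene did not pass. Among all genes 30.2% were lower and 30.6% higher, and no count expected by chance was made for such pairs. Of the exon length of Ndufb11, 12.9% overlaps Rbm10 on the opposite strand, and the strand setting of the counting is not given.

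Next to the members stand 8 lists of related genes, chosen with earlier results of these data known, from which the counts describe these libraries only. They are read against the 30.2% lower and 30.6% higher among all genes. Of 11 tested assembly factors without the Nduf name, 3 were lower (27.3%), 2 were higher (18.2%) and 6 did not pass, with a median of -0.05, so that neither share exceeded the background. Tmem70, known mainly as an assembly factor of complex V that also acts on complex I, rose from 28.2 ± 1.79 to 52.4 ± 6.69 FPKM (0.86 on the log2 scale, limma adjusted p = 0.000221). Dmac2, a distal membrane-arm factor, rose from 6.87 ± 0.410 to 10.49 ± 0.879 FPKM (0.54, adjusted p = 0.000708). The 3 that fell were Acad9 (-0.33), Timmdc1 (-0.31) and Ecsit (-0.27). Acad9 and Ecsit act with Ndufaf1 in the membrane-arm assembly complex.

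Genes of the other respiratory complexes differed in how often they were lower. In complex II, 3 of 4 genes were lower (75%), with a median of -0.27, led by Sdhc (-0.64) and Sdhb (-0.31), an anchor and an iron-sulfur subunit. In complex III, 7 of 9 nuclear-encoded genes were lower (77.8%) and none was higher, with a median of -0.31, led by Uqcrh (-1.02) and Uqcrq (-0.75). In complex IV, 4 of 10 were lower (40%, not far from the 30.2% of all genes) and none was higher, with a median of -0.07, led by Cox8a (-0.38) and Cox5a (-0.36). In complex V, the ATP synthase, 6 of 15 were lower (40%) and 2 were higher (13.3%), with a median of -0.20. Its largest changes were Atp5g1, a gene of the membrane ring, which rose from 14.4 ± 3.18 to 26.4 ± 1.81 FPKM, and Atp5a1, a subunit of the catalytic head, which fell from 559 ± 1.98 to 331 ± 2.53 FPKM. All 5 tested mitochondrially encoded genes of other complexes were lower, with a median of -0.58, led by mt-Atp6 (-0.86) and mt-Cytb (-0.77). Among them mt-Atp6 had 75 to 197 fragments per library, mt-Co2 184 to 321 and mt-Co3 147 to 214, against 54887 to 71659 for mt-Co1. Near-identical copies were searched for complex I genes only, so the part of shared fragments in these levels was not tested. Differences between complex I and these groups were not tested.

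**Figure D4:**
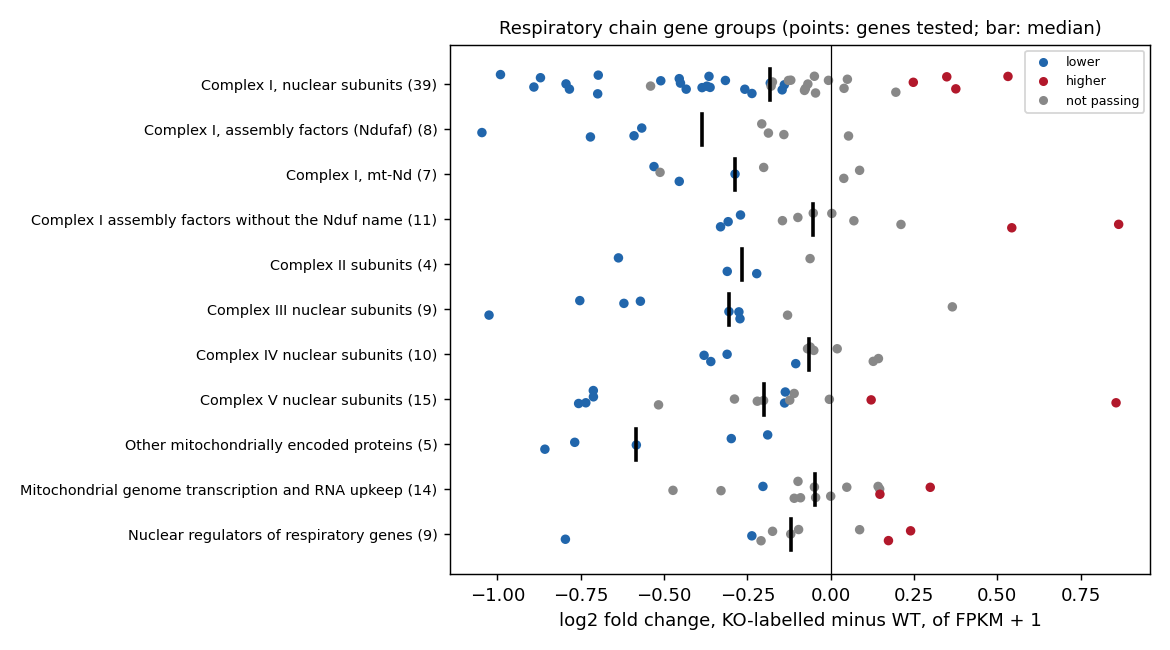
Log2 fold changes (KO-labelled minus WT, of FPKM + 1) of complex I genes and of the related lists, with 1 point per tested gene, the number tested in brackets and a bar at the median. Blue is lower, red higher and grey not passing; medians run from -0.58 for the other mitochondrially encoded proteins to -0.05 for the assembly factors without the Nduf name and for the genes of mitochondrial transcription.

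Genes that act on the expression of both genomes went both ways. Of 14 tested genes of mitochondrial transcription, replication and RNA upkeep, 2 were higher (14.3%), 1 was lower (7.14%) and 11 did not pass, with a median of -0.05. Polrmt, the mitochondrial RNA polymerase, rose by 0.30 (limma adjusted p = 0.0142) and Mterf3, a negative regulator of mitochondrial transcription, fell by 0.20 (adjusted p = 0.0322). These calls were not stable: the number lower in this list was 0 on the TPM scale, with voom, and without WT replicate 2, WT replicate 3, KO-labelled replicate 1 or KO-labelled replicate 2, and the number higher was 1 when any library other than WT replicate 2 was left out. Tfam, which packs and transcribes the mitochondrial genome, was at 15.2 ± 0.518 FPKM in WT and 15.8 ± 0.654 in KO-labelled cells, a change of 0.05 (95% interval -0.08 to 0.17). Of 9 tested nuclear regulators of respiratory genes, 2 were lower, 2 were higher (22.2% each) and 5 did not pass, with a median of -0.12. Ppargc1b, the coactivator PGC-1beta, fell from 5.19 ± 0.377 to 2.57 ± 0.383 FPKM (-0.80, adjusted p = 0.000398). Hcfc1, a cofactor that works with GABPA, rose by 0.24 (adjusted p = 0.00332). Nrf1, Gabpa and Yy1, the factors whose motifs were searched, did not pass, with changes of -0.21, -0.10 and 0.09.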

How the data were processed

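Poly(A)-selected RNA of 6 libraries was measured, 3 WT and 3 KO-labelled. The authors deposited FPKM values, in 1 column per library, by Ensembl gene identifier. The submitters' processing notes name the genome build mm10 and, with no role given, HISAT2 2.0.5 together with featureCounts 1.5.0-p3. Strand setting, annotation and multi-mapping rules were not given in the sources used here, so near-identical copies and overlapping genes are uncertain. Symbols, positions and exon lengths were taken from GENCODE M21, and 37 of 54532 identifiers had no symbol.

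Fragments per library were recovered from FPKM and exon length: about 98.0% of values up to 200 fragments were whole within 0.1. Tests covered the 10843 genes whose mean over all libraries reached 1 FPKM, with limma 3.58.1 in R 4.3.3 and a mean-variance trend on log2(FPKM + 1), which understates changes of low genes. Adjusted p-values are Benjamini-Hochberg values over all genes tested, called under 0.05. The fit was run on simulated data with fewer changed genes than here and a spread taken from the WT libraries. Its performance under the wide differences of these data was not tested. Libraries had no identical values above 0 (0 in every pair). Copies were found with BLAST+ 2.17.0 among annotated transcripts. Motif counts and copy sums are descriptions, and start windows are from RefSeq.

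The members, lists and tests were chosen with earlier results of these data known. The genes given in every library are, in each class, the 3 with the largest change that passed, every gene that passed against the main direction, and all mt-Nd genes. For related lists they are the 2 largest changes that passed. Of the genes the rule takes, 1 is not reported here; counts over classes and lists include it. Other genes given with values were chosen after their values were seen. Alternatives were the pseudocount, the filter, the scaling, the test, the replicate block, each library left out, and copies left out or added.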

Additional observations from a re-analysis of the deposited data

How the results depend on the processing

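Of the 32 complex I genes that passed, 24 (22 lower, 2 higher) did so in the same direction under each of 14 alternatives, and none of the 32 changed direction. Exceptions were Ndufa6, Ndufa7, Ndufa8, Ndufa9, Ndufb8, Ndufs1, mt-Nd2 and mt-Nd4; the cause was not tested. Depth limits the lowest genes: 3 fragments came to 0.104 to 0.370 FPKM in the genes at 0. Left-out libraries leave 2 in a group, whose spread is pooled over genes and groups.

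Leaving out 1 library in turn, the complex I median ran from -0.27 to -0.21, with 24 to 31 genes lower and 2 to 4 higher. Class medians ran from -0.18 to -0.094 (a), -0.28 to -0.22 (b), -0.51 to -0.46 (c), -0.37 to -0.32 (s), -0.29 to -0.23 (v), -0.44 to -0.32 (assembly factors) and -0.32 to -0.26 (mt-Nd). Numbers lower and higher ran from 2 to 4 and 2 to 3 in the other assembly factors, 2 to 3 and 0 to 0 in complex II, 7 to 8 and 0 to 1 in complex III, 3 to 5 and 0 to 0 in complex IV, 4 to 7 and 1 to 2 in complex V, 4 to 5 and 0 to 0 in the other mitochondrial genes, 0 to 1 and 1 to 2 in mitochondrial transcription, and 2 to 3 and 1 to 2 in the regulators.

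Same-numbered libraries of both groups shared no visible deviation from their group means (correlations of deviations of -0.03, 0.05 and -0.03). This cannot show whether they were prepared together. With the replicate block 27 complex I genes were lower and 4 higher, with a median of -0.22. These were not all the same genes: under the block Ndufs1, Ndufa8 and Ndufa9 did not pass (adjusted p = 0.112, 0.0707 and 0.0593), and Ndufaf1 and Ndufc1 did (0.0438 and 0.0451), all lower. In that fit 1 complex III gene was higher, 1 complex V gene, 1 regulator and 1 gene of mitochondrial transcription were higher, and 0 of the last were lower.

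On the TPM scale the medians were -0.16 for complex I, -0.016 (a), -0.14 (b), -0.40 (c), -0.27 (s), -0.17 (v) and -0.31 (assembly factors), with 1 gene higher in complex III and 1 in complex IV, 1 regulator lower and 0 genes of mitochondrial transcription lower. Under quantile normalization they were -0.077 (a), -0.45 (c), -0.26 (s) and -0.17 (v), with 1 gene higher in complex III and 1 in complex IV, 2 lower in complex IV, and 1 higher and 3 lower in mitochondrial transcription. With voom on recovered fragments they were -0.075 (a) and -0.34 (s), with 1 gene higher in complex III and 1 in complex IV, and 0 lower in mitochondrial transcription. With a mean of at least 5 FPKM they were -0.26 for complex I, -0.30 (b) and -0.57 (assembly factors), with 1 regulator lower and 1 complex III gene higher. With a pseudocount of 0.1 the complex I median was -0.25, and with copies added -0.25. Without genes that have a copy the medians were -0.19 for complex I, -0.073 (a), -0.43 (b) and -0.45 (s). Without the filter, and without the trend, 1 complex V gene was higher, and without the trend 1 gene of mitochondrial transcription was higher.

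Direction changed for genes that had not passed. On the TPM scale Ndufa1 was at 0.045, Ndufa11 at 0.013, Ndufa3 at 0.023, Ndufb4c at 0.079, Ndufs3 at 0.015 and Ndufs6b at 0.0033. Ndufa1 was at 0.037 under quantile normalization, and Ndufb4c at 0.10 with voom. With 1 library left out, values ran from -0.028 to 0.093 for Ndufa10, -0.18 to 0.079 for Ndufa11, -0.18 to 0.034 for Ndufa3, -0.0096 to 0.14 for Ndufaf2, -0.054 to 0.12 for Ndufb4, -0.37 to 0.37 for Ndufb4c, -0.033 to 0.11 for mt-Nd5, -0.031 to 0.18 for mt-Nd6 and -0.14 to 0.074 for Ndufs6b.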

Other observations

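The symbols Ndufb1-ps and Ndufab1-ps were left out of the counts by their ending, but both were expressed. Ndufb1-ps had 29.8, 31.7 and 31.1 FPKM in the WT libraries and 21.8, 27.1 and 43.2 in the KO-labelled ones. The WT libraries lay close together and the KO-labelled ones on both sides of them, and the change of -0.06 (95% interval -0.58 to 0.46) did not pass in limma. Ndufab1-ps, a near-identical copy of Ndufab1, had 15.3, 14.6 and 15.1 FPKM in the WT libraries and 14.6, 16.9 and 22.8 in the KO-labelled ones, with a change of 0.23 (95% interval -0.11 to 0.57) that did not pass. In both, KO-labelled replicate 3 had the highest level of the 6 libraries.

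The ribosomal RNAs of the mitochondrial genome, which carry no complex I subunit, had 206 to 228 FPKM in WT and 144 to 153 FPKM in KO-labelled libraries for mt-Rnr1 (-0.53, limma adjusted p = 0.000103), and 59.7 to 73.1 FPKM and 50.1 to 66.9 FPKM for mt-Rnr2 (-0.18, adjusted p = 0.212), which overlapped between groups.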
